A study of Homo sapiens with 18 samples.

Results

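The genes described here belong to NF-κB signaling: the chemokines CXCL8, CXCL1, CXCL2, CCL2 and CCL20, the feedback inhibitors NFKBIA and TNFAIP3, the survival gene BIRC3, the NF-κB subunit RELB and the adaptor TRAF6. These 10 genes, of 19720 with a probe named here, were taken by name, with earlier results of these data known. Their probes were found through the RefSeq accession listed for each probe. The 10 genes had 12 of the 42327 probes kept, with 2 probes each for CXCL1 and CXCL2 and 1 for every other gene. The samples were EpCAM+ cells purified by flow cytometric sorting from the established hepatocellular carcinoma (HCC) lines Huh1 and Huh7. EpCAM is a surface protein used to mark tumor-initiating HCC cells. In each line, cells had been kept for 48 hours with disulfiram (DSF, 0.1 µM), an aldehyde dehydrogenase inhibitor, with 5-fluorouracil (5-FU, 1 µM), a pyrimidine analog, or with neither drug (control), which gave 6 groups of 3 arrays and 18 arrays in all. According to the series text, the triplicates came from 3 independent experiments. Copper chloride is listed beside DSF in the methods, which leave the treatment of control cells unstated, so effects of DSF and of copper cannot be told apart. The labels name the sort after the treatment, while the series text speaks of purified cells that were treated. In such bulk samples, fewer cells of a type and less RNA per cell cannot be told apart either.

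NF-κB dimers are held in the cytoplasm by IκB proteins until signals from TNF, IL1 family or Toll-like receptors, passed on by adaptors such as TRAF6, lead IκB kinase to mark IκB for destruction. The dimers then enter the nucleus, bind κB elements and switch on chemokines together with the genes that end the response, such as NFKBIA and TNFAIP3. In hepatocytes the pathway is known for its part in inflammation and for protection from TNF-induced cell death.

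RefSeq promoter sequences (GRCh38.p14) were held for 8 of the 10 genes, all but CCL2 and RELB. The 250 bases before each start were searched on both strands for forms of the κB element, since NF-κB dimers bind there. The loose form, GGG and CC with any 5 bases between them, was in all 8 promoters, but also in 54.4% of the 35116 promoters of the table. The narrower GGNATTTCC was in 6 of the 8 (CXCL8, CXCL1, CXCL2, NFKBIA, TNFAIP3 and BIRC3) and in 1.23% of all promoters. Its special case GGAATTTCC was in 4 of the 8 (CXCL8, CXCL1, CXCL2 and NFKBIA) and in 0.413% of all promoters. The narrower forms were chosen after longer ones had been searched, and matches of the different forms overlap each other. CCL20 and TRAF6 did not hold these narrower letters in this window. Windows of 120 bases are shown for the 6 genes, read 5′ to 3′ on the strand of the gene, with capitals for GGNATTTCC on either strand. The windows are chr4:73740449-73740568 (plus strand) for CXCL8, chr4:73869273-73869392 (plus) for CXCL1, chr4:74099196-74099315 (minus) for CXCL2, chr14:35404750-35404869 (minus) for NFKBIA, chr6:137867139-137867258 (plus) for TNFAIP3 and chr11:102317275-102317394 (plus) for BIRC3. The windows of CXCL8, CXCL1, CXCL2 and NFKBIA end at the base before the first base of the gene. That of TNFAIP3 ends before a start which the promoter table places inside the gene, whose span begins at base 137866349 of chromosome 6, and that of BIRC3 lies farther upstream, from base -209 to base -90.
CXCL8: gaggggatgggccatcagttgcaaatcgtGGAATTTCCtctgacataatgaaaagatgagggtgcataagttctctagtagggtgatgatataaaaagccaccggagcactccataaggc
CXCL1: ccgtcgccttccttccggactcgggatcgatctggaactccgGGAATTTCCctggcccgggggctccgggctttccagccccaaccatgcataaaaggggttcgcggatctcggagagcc
CXCL2: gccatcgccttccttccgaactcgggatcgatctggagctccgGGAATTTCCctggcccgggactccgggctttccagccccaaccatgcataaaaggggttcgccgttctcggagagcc
NFKBIA: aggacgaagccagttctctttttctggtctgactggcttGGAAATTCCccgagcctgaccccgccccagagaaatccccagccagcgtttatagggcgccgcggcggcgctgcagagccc
TNFAIP3: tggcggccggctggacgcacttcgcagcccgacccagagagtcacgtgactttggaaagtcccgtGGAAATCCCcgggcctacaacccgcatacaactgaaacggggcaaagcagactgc
BIRC3: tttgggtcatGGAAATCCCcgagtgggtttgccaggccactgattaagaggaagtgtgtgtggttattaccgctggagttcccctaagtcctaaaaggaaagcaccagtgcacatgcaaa
The match in CXCL8 lay at bases -91 to -83, that in CXCL1 at -78 to -70 and that in CXCL2 at -77 to -69, all on the strand of the gene. The windows of CXCL1 and CXCL2, paralogs on the same chromosome, were identical at 113 of 120 bases (94.2%) after alignment. In NFKBIA, TNFAIP3 and BIRC3 the match was on the opposite strand, at -81 to -73, -55 to -47 and -199 to -191. The promoters of NFKBIA and TNFAIP3 also held GGACTTTCC, which was in 0.333% of all promoters. A match is a run of letters, and binding was not measured here.

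Values are given as normalized log2 signal, the log2 of the processed spot signal minus the 75th percentile of its array. Per array, 59.3% to 70.6% of probes were well above background by the flag of the scanner software, and a single limma fit covered the 29760 probes that passed this flag throughout at least 1 group. A change was called at a Benjamini-Hochberg adjusted p under 0.05. Against bright spike-in probes, the 75th percentile of the 5-FU arrays stood above that of the controls by 0.83 (log2) in Huh1 and 0.98 in Huh7, whereas with DSF it differed by 0.13 and -0.18. A scaling on these spike-ins therefore placed the median probe at 0.80 and 0.94 after 5-FU, and the changes given here are relative to the bulk of the array. The first replicate of the Huh1 controls stood apart for these genes, with a median absolute difference of 0.57 and 0.43 from the other 2, which differed from each other by 0.03. The first replicates of the 5-FU groups also lay apart from the others, by 0.32 and 0.34 in Huh1 and by 0.31 and 0.20 in Huh7. Where a call changed without one of these arrays, the value without it stands beside the result. Among the 3 slides, one scanned on another day held nothing but 2 of the Huh7 DSF arrays, while every 5-FU array shared a slide with its controls. These 2 DSF arrays, replicates 2 and 3, differed by 0.03 for the 10 genes, and from the first by 0.16 and 0.15. Spread in that group thus cannot be told apart from slide. In Huh1 with 5-FU, replicates 2 and 3 also differed by 0.03. An alternative averaged replicates 2 and 3 in these groups and in the Huh1 controls. Whether such close pairs are independent was not tested.

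All 9 liver and HCC markers examined (ALB, AFP, TTR, APOA1, APOB, GPC3, EPCAM, KRT8 and KRT18) were well above background on all 18 arrays. After DSF 8 of them fell in Huh1 (4 on the spike-in scale), beside 20.4% of all probes. In Huh7 4 fell, beside 19.4% of all probes, and 2 rose (0 on the spike-in scale). After 5-FU 2 rose and 3 fell in Huh1, and 5 rose and 2 fell in Huh7. On the spike-in scale all 9 rose after 5-FU in each line. After DSF, EPCAM itself stood at -0.66 ± 0.17 (log2 change, SE) in Huh1, where it was not called on the spike-in scale (-0.52), and at -0.50 ± 0.17 in Huh7. Of 5 leukocyte markers with a probe, MS4A1 was well above background on 0 arrays, CD3E on 3, and PTPRC, CD14 and CD68 on 18. The summed level of the leukocyte markers was 0.79 to 0.82 (log2) in Huh7 controls, 0.86 to 0.99 after DSF and 1.49 to 2.14 after 5-FU. In Huh1 it was 2.05 to 2.45, 2.07 to 2.14 and 2.39 to 2.55. Of the 3 leukocyte markers tested, 0 rose and 1 fell after DSF in each line, 1 rose and 1 fell after 5-FU in Huh1, and 1 rose and 0 fell after 5-FU in Huh7. CD14, a coreceptor for lipopolysaccharide, fell after DSF by 0.69 and 0.77 in Huh1 and Huh7 (limma adjusted p = 0.0121 and 0.00624), and CD68, a lysosomal protein of macrophages, was higher after 5-FU by 0.68 and 1.59. Of 4 fibroblast markers, COL3A1 and ACTA2 were well above background on 0 arrays, COL1A1 on 7 and DCN on 9. Their summed level in Huh7 was -3.48 to -3.23 in controls, -4.99 to -4.54 after DSF and -2.27 to -1.83 after 5-FU. In Huh1 these sums were -5.26 to -3.51, -4.88 to -3.88 and -5.52 to -5.19. Of 3 endothelial markers, VWF was well above background on 13 arrays and the others on 18, with sums of -1.999 to -1.87, -1.83 to -1.67 and -1.25 to -1.03 in Huh7 controls, DSF and 5-FU, and of -0.99 to -0.69, -1.27 to -1.23 and -1.47 to -0.75 in Huh1. The part of such markers in the results was not tested.

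After DSF, 9 of the 9 genes measured in Huh1 were called higher, where 24% of all probes were, and the median change over the genes was 2.41 (log2) against 0.00 over all probes. In Huh7, 8 of 10 were called higher beside 27.4% of all probes, with medians of 1.05 and 0.08, and CCL20 and NFKBIA were not called. After 5-FU, 8 of 9 genes were called higher in Huh1 (22.3% of all probes) with medians of 1.34 and -0.03, and NFKBIA was not called. In Huh7, 7 of 10 were (27.4% of all probes) with medians of 0.73 and -0.05, and CCL20, NFKBIA and TNFAIP3 were not called. On the spike-in scale, 9 of 9 in Huh1 and 10 of 10 in Huh7 were called after 5-FU, against 9 and 7 after DSF. Each of these calls was a rise. The median of all probes on the spike-in scale was itself 0.80 and 0.94 after 5-FU, and 0.14 and -0.09 after DSF. There 19 of 23 receptors and adaptors were also called higher after 5-FU in each line. The share of all probes called on that scale was not counted. The treated arrays lay above all control arrays for 9 of 9 genes after DSF in Huh1 (30% of all probes) and for 9 of 10 in Huh7 (33.8%), and after 5-FU for 8 of 9 (25.4%) and 8 of 10 (31.5%). The Huh7 counts and medians include CCL2. It entered the fit only through the treated Huh7 groups, where it was high, so its rises there follow in part from the filter. DSF and 5-FU were set against the same control arrays, so their changes are not independent of each other.

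**Figure D1:**
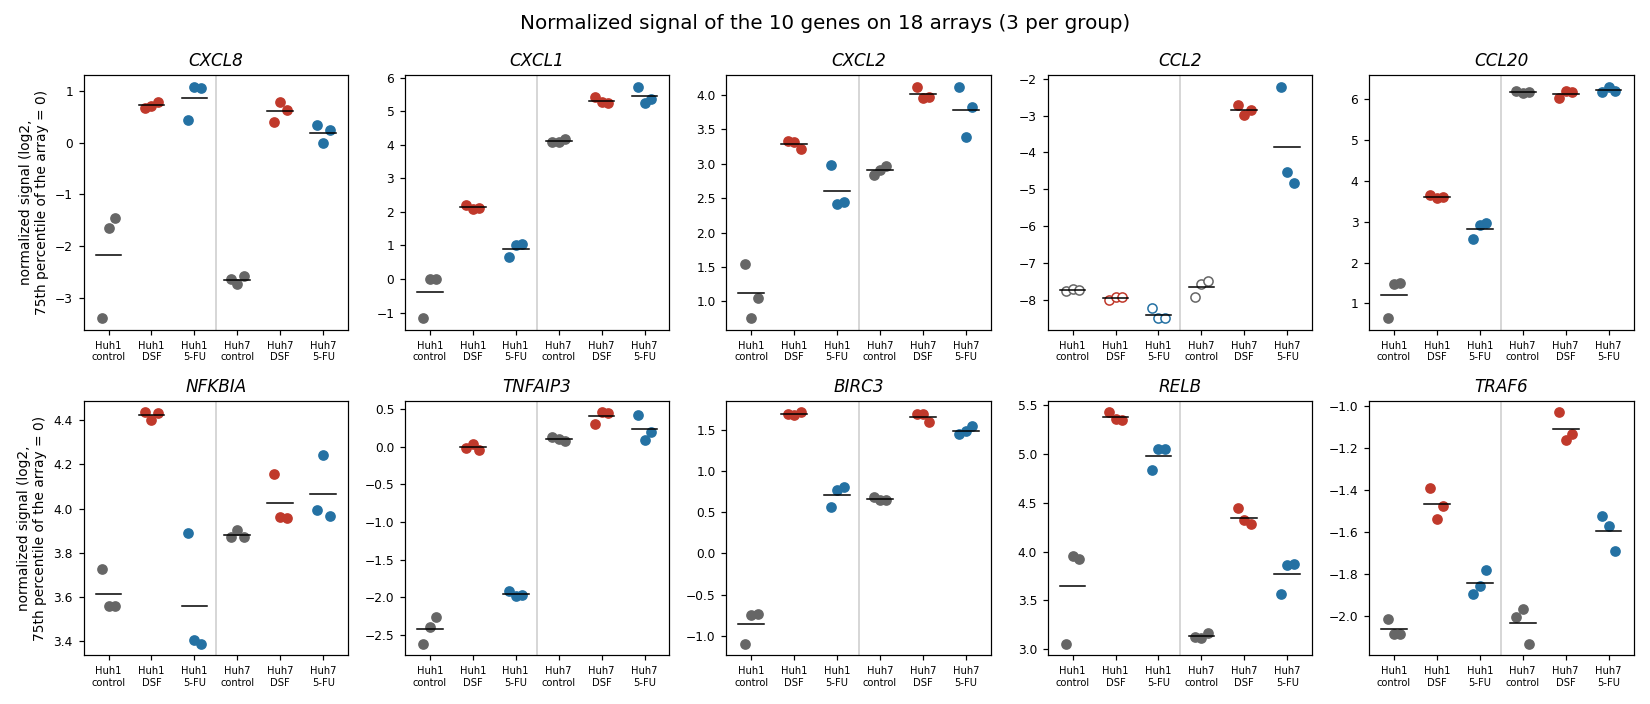
Normalized log2 signal (vertical axis, 75th percentile of the array at 0, a scale of its own for each gene) of the brightest probe of each of the 10 genes on the 18 arrays. Points are single arrays in gray (control), red (DSF) and blue (5-FU), open points are not well above background, and black lines are means of 3 arrays. In every panel but CCL2, the Huh1 DSF arrays lie above all Huh1 control arrays, and CCL2 has filled points in the treated Huh7 groups only.

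CXCL8 (interleukin 8), which attracts neutrophils, rose after both drugs in both lines. In Huh1 it was at -3.40, -1.66 and -1.47 on the control arrays, at 0.68, 0.71 and 0.79 with DSF and at 0.44, 1.08 and 1.05 with 5-FU. In Huh7 the control arrays were at -2.65, -2.73 and -2.59, the DSF arrays at 0.39, 0.79 and 0.62 and the 5-FU arrays at 0.33, -0.01 and 0.25. No treated array overlapped the controls of its line, and the lowest value of all was the first Huh1 control. The change after DSF was 2.90 ± 0.36 (log2, SE, n = 3 against 3), or 7.46-fold, in Huh1 (limma adjusted p = 1.75e-05) and 3.26 ± 0.36, or 9.56-fold, in Huh7 (limma adjusted p = 6.72e-06). The changes after 5-FU were 3.03 ± 0.36 and 2.84 ± 0.36 (limma adjusted p = 1.13e-05 and 1.05e-05). Without the first Huh1 control, the changes in Huh1 were 2.29 and 2.42, still called (limma adjusted p = 5.26e-07 and 4.54e-07). Within slides the changes after DSF were 2.87 in Huh1, from 2 DSF arrays, and 3.04 in Huh7, from 1.

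CXCL1 and CXCL2, closely related neutrophil chemokines encoded on chromosome 4 like CXCL8, were called higher by both of their probes in all 4 comparisons with control. CXCL1 stood in Huh1 at -1.17, 0.00 and -0.01 in controls, 2.20, 2.09 and 2.11 with DSF and 0.65, 1.02 and 1.05 with 5-FU. In Huh7 it was at 4.09, 4.08 and 4.17 in controls, 5.42, 5.28 and 5.24 with DSF and 5.73, 5.24 and 5.36 with 5-FU. The lowest Huh7 control was thus above the highest Huh1 array of any treatment, and in each line the treated arrays were above their controls. After DSF the brighter probe of CXCL1 rose by 2.53 ± 0.24 (Huh1) and 1.20 ± 0.24 (Huh7; SE, n = 3 against 3, limma adjusted p = 1.47e-06 and 9.91e-04), and the other probe by 2.38 and 1.42. After 5-FU the rise was 1.30 ± 0.24 and 1.33 ± 0.24 (limma adjusted p = 4.73e-04 and 2.68e-04), with 1.27 and 1.43 by the other probe. Without the first Huh1 control, the brighter probe rose by 2.14 after DSF and 0.91 after 5-FU in that line. The brighter probe of CXCL2 ranged from 0.76 to 1.55 in Huh1 controls, from 3.22 to 3.34 with DSF and from 2.41 to 2.98 with 5-FU. In Huh7 these ranges were 2.84 to 2.97, 3.96 to 4.12 and 3.40 to 4.12, so that the treated arrays did not overlap the controls while the drugs overlapped each other. The change after DSF was 2.17 ± 0.20 and 1.11 ± 0.20 (limma adjusted p = 1.26e-06 and 5.10e-04) and after 5-FU 1.49 ± 0.20 and 0.88 ± 0.20 (3.67e-05 and 0.00193), in Huh1 and Huh7. The second probe gave 2.26, 1.31, 1.41 and 1.03 in the same order. CXCL1, CXCL2 and CXCL3 are close in sequence, and whether a probe also bound transcripts of its paralogs was not tested.

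CCL2 (MCP-1), which attracts monocytes, was measured in the treated Huh7 cells but not elsewhere. All 9 Huh1 arrays and all Huh7 control arrays failed the flag for signal well above background, and the values recorded on those Huh7 controls were -7.92, -7.57 and -7.50. With DSF the Huh7 arrays were at -2.71, -2.99 and -2.85, and with 5-FU at -2.22, -4.52 and -4.82. The DSF arrays lay close together, whereas the first 5-FU array was apart from the other 2. The lowest signals well above background set a level of -5.99 for the Huh7 controls, against which CCL2 was at least 8.80-fold higher with DSF and at least 4.39-fold higher with 5-FU (limma adjusted p = 1.51e-06 and 5.66e-06 from the recorded values). Without the first 5-FU array, the bound for 5-FU was 2.49-fold. These bounds hold for the main processing only. Over the alternatives, the change from recorded values ranged from 1.69 to 4.95 (log2) with DSF and from 1.01 to 4.79 with 5-FU. The leukocyte and fibroblast marker sums of the Huh7 arrays were also highest with 5-FU (1.49 to 2.14 and -2.27 to -1.83), and their part in the rise of CCL2 with 5-FU was not tested, while with DSF the fibroblast sum was below that of the controls and the leukocyte sum was 0.86 to 0.99 against 0.79 to 0.82. No fold was taken in Huh1, where both sides of each comparison were below background.

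CCL20, the ligand of CCR6, changed in Huh1 and not detectably in Huh7. The Huh1 controls were at 0.64, 1.46 and 1.50, the DSF arrays at 3.65, 3.57 and 3.61 and the 5-FU arrays at 2.57, 2.93 and 2.97. In Huh7 all 9 arrays lay between 6.01 and 6.29, with the 3 groups overlapping. In Huh1 the rise was 2.41 ± 0.17 after DSF and 1.62 ± 0.17 after 5-FU (SE, n = 3 against 3, limma adjusted p = 1.26e-07 and 4.64e-06), and 2.13 and 1.34 without the first control. The changes in Huh7 were -0.05 (95% confidence interval -0.42 to 0.33) after DSF and 0.05 (-0.32 to 0.43) after 5-FU. Quantile normalization gave 0.43 after 5-FU in Huh7 with a call (limma adjusted p = 0.0423), and spike-in scaling 1.04.

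NFKBIA, which encodes the inhibitor IκBα and is itself an NF-κB target, was called in 1 of the 4 comparisons with control. In Huh1 the 3 DSF arrays were at 4.40 to 4.43, above the controls at 3.56 to 3.73, and the 5-FU arrays spanned 3.39 to 3.89. In Huh7 the controls were at 3.87 to 3.90, the DSF arrays at 3.96 to 4.16 and the 5-FU arrays at 3.97 to 4.24, small differences without overlap. The rise after DSF in Huh1 was 0.81 ± 0.12 (SE, n = 3 against 3, limma adjusted p = 6.84e-05). The other 3 changes were -0.05 (95% confidence interval -0.31 to 0.20) after 5-FU in Huh1, 0.14 (-0.11 to 0.40) after DSF in Huh7 and 0.19 (-0.07 to 0.44) after 5-FU in Huh7. On the spike-in scale the changes after 5-FU were 0.77 and 1.17, both called, and that after DSF in Huh7 was -0.03.

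TNFAIP3 encodes A20, a ubiquitin-editing enzyme that ends NF-κB signaling. In Huh1 it was at -2.62, -2.39 and -2.26 in controls, at -0.02, 0.04 and -0.04 with DSF and at -1.91, -1.99 and -1.97 with 5-FU. In Huh7 the controls were at 0.13, 0.11 and 0.07, the DSF arrays at 0.30, 0.45 and 0.45 and the 5-FU arrays at 0.42, 0.09 and 0.20. With DSF the Huh1 arrays thus lay just under the Huh7 controls, and the Huh1 5-FU arrays stayed below that range. After DSF the change in Huh1 was 2.42 ± 0.09, or 5.34-fold (SE, n = 3 against 3, limma adjusted p = 1.61e-10), and after 5-FU 0.47 ± 0.09 (limma adjusted p = 8.04e-04). In Huh7 it was 0.30 ± 0.09 after DSF (limma adjusted p = 0.016), and 0.14 after 5-FU (95% confidence interval -0.06 to 0.33), which became 1.12 and was called on the spike-in scale (5.58e-06). The call after DSF in Huh7 did not hold with slide as a block (0.20, limma adjusted p = 0.3) or with spike-in scaling (0.125, 0.564). It was also lost with the closest replicates averaged (0.277, 0.0685), and without the third control (0.286, 0.0506) or the second or the third DSF array (0.276 and 0.278, 0.0574 and 0.0567).

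BIRC3 (cIAP2), a ubiquitin ligase that guards cells against TNF-induced death, was called in all 4 comparisons with control. The Huh1 controls were at -1.10, -0.75 and -0.74, with the DSF arrays at 1.69, 1.68 and 1.71 and the 5-FU arrays at 0.56, 0.77 and 0.81. In Huh7 the controls were at 0.69, 0.64 and 0.64, the DSF arrays at 1.70, 1.69 and 1.59 and the 5-FU arrays at 1.44, 1.48 and 1.54. The DSF arrays of the 2 lines reached the same range although the controls did not overlap. The change after DSF was 2.55 ± 0.09, or 5.87-fold, for Huh1 and 1.00 ± 0.09 for Huh7 (SE, n = 3 against 3, limma adjusted p = 6.08e-11 and 8.47e-07). After 5-FU it was 1.57 ± 0.09 and 0.83 ± 0.09 (limma adjusted p = 2.33e-08 and 1.98e-06).

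RELB, the subunit of the noncanonical branch, ranged from 3.05 to 3.96 in Huh1 controls, from 5.35 to 5.43 with DSF and from 4.83 to 5.06 with 5-FU. In Huh7 the ranges were 3.11 to 3.16, 4.28 to 4.45 and 3.57 to 3.88, so that in both lines the order was DSF, 5-FU, control without overlap. The changes after DSF were 1.73 ± 0.18 and 1.22 ± 0.18 (SE, n = 3 against 3, limma adjusted p = 3.29e-06 and 8.63e-05), and after 5-FU 1.33 ± 0.18 and 0.63 ± 0.18 (limma adjusted p = 3.36e-05 and 0.00762), in Huh1 and Huh7. Without the first Huh1 control the changes in that line were 1.44 and 1.04. TRAF6, a ubiquitin ligase and adaptor downstream of IL1 and Toll-like receptors, was at -2.09 to -2.02 in Huh1 controls, -1.54 to -1.39 with DSF and -1.90 to -1.78 with 5-FU. Its Huh7 arrays were at -2.13 to -1.97, -1.16 to -1.03 and -1.69 to -1.52, in the same order as RELB. The rises were under 1 on the log2 scale: 0.59 ± 0.07 and 0.92 ± 0.07 after DSF (limma adjusted p = 7.10e-06 and 1.27e-07) and 0.22 ± 0.07 and 0.44 ± 0.07 after 5-FU (0.0152 and 5.87e-05). The smallest of them, after 5-FU in Huh1, was not called under normexp background correction (0.085), quantile normalization (0.171) or median scaling (0.195). Nor was it called with the closest replicates averaged (0.193) or without the third 5-FU array (0.185).

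**Figure D2:**
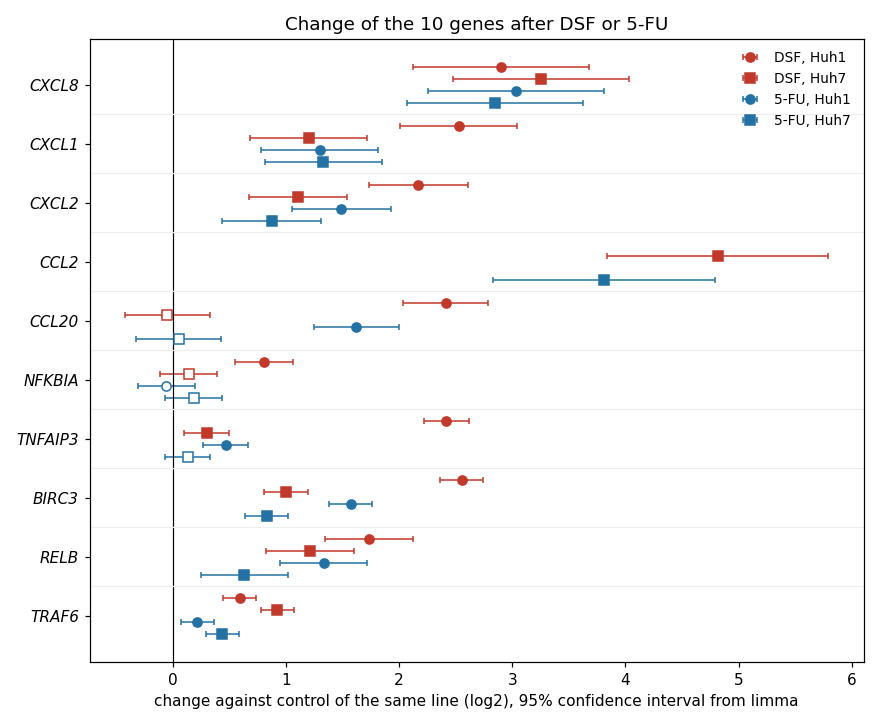
Change against the control of the same line (horizontal axis, log2) for each gene, with points for DSF (red) and 5-FU (blue) in Huh1 (circles) and Huh7 (squares), and bars for 95% confidence intervals from limma. Filled points passed an adjusted p under 0.05. CCL2 is drawn in Huh7 only, where its controls were below background and the recorded values are plotted. All 4 points of CXCL8 lie between 2.84 and 3.26, while CCL20 and TNFAIP3 separate the DSF point in Huh1 from the points in Huh7.

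The study set DSF beside 5-FU, and the 2 drugs were compared directly within each line. Whether the difference between the drugs itself differed between the lines was not tested. In Huh1, 7 of 9 genes were called higher with DSF than with 5-FU, beside 28.7% of all probes, and 1 of them (TNFAIP3) on the spike-in scale. On that scale the median of all probes was -0.61. The DSF arrays lay above all 5-FU arrays for 8 of 9 genes (37.3% of all probes). TNFAIP3 differed most, by 1.95 ± 0.09 (SE, n = 3 against 3, limma adjusted p = 1.59e-09), and by 1.25 on the spike-in scale. CXCL1 differed by 1.23, BIRC3 by 0.98, NFKBIA by 0.86, CCL20 by 0.79, CXCL2 by 0.68 and TRAF6 by 0.38 (limma adjusted p = 9.08e-07 to 0.0126), but on the spike-in scale these were 0.53, 0.28, 0.17, 0.10, -0.01 and -0.32, none of them called. The differences of CXCL8 (-0.13, 95% confidence interval -0.91 to 0.64) and RELB (0.40, 0.01 to 0.78) were not called. RELB was called without the first Huh1 control (0.398, limma adjusted p = 0.00181) and in a fit of only the groups compared (0.398, 0.00975), and turned to -0.296 on the spike-in scale. The call of CXCL2 did not hold without the second or the third Huh1 5-FU array (limma adjusted p = 0.0542 and 0.0504) or with the closest replicates averaged (0.0593). In Huh7, 2 of 10 genes were called higher with DSF (35.6% of all probes), RELB by 0.58 ± 0.18 and TRAF6 by 0.48 ± 0.07 (limma adjusted p = 0.0123 and 2.38e-05), and both turned to -0.58 and -0.68 on the spike-in scale. RELB was not called without the first Huh7 5-FU array (0.48, limma adjusted p = 0.0535). The other 8 genes had changes of -0.13 to 1.01, none of them called, and the DSF arrays were above all 5-FU arrays for 4 of the 10 (36.8% of all probes). The highest was that of CCL2 (95% confidence interval 0.03 to 1.98). Without the first 5-FU array, that difference was 1.82 (limma adjusted p = 1.32e-07), and TNFAIP3 was called too (0.259, 0.0229). The first Huh1 control enters this comparison only through the spread shared by all groups, and without it CXCL8 (0.413, limma adjusted p = 0.0354) and BIRC3 (0.171, 0.0339) were called as well, 4 of the 10 in all. With scaling on the spike-ins 8 of 10 were called, and all 8 were lower with DSF, where the median of all probes was -1.04.

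The response to DSF differed between the lines for 7 of the 9 genes with a level in both (40.4% of all probes) by the interaction term, in which the change of Huh1 is taken from that of Huh7. It was smaller in Huh7 for CCL20 (-2.46 ± 0.25, SE), TNFAIP3 (-2.12 ± 0.13), BIRC3 (-1.55 ± 0.13), CXCL1 (-1.33 ± 0.34), CXCL2 (-1.06 ± 0.29) and NFKBIA (-0.66 ± 0.17), with limma adjusted p of 6.69e-08 to 0.00924. TRAF6 rose more in Huh7, by 0.33 ± 0.09 (limma adjusted p = 0.0128). It was not called on the spike-in scale (0.02) or under normexp background correction (0.181, limma adjusted p = 0.137). CCL2, with no level above background in Huh1, was left out of this comparison. With slide as a block, the differences of CXCL1, CXCL2 and NFKBIA were -1.23, -0.998 and -0.529 and no longer called (limma adjusted p = 0.0677, 0.0768 and 0.0904). CXCL8 showed no detectable difference (0.36, 95% confidence interval -0.74 to 1.46), but without the first Huh1 control it was 0.97 and called (limma adjusted p = 0.00563). RELB was at -0.52 (-1.06 to 0.03), and was called on the spike-in scale (-0.829, limma adjusted p = 0.0427) and without the second Huh1 control (-0.675, 0.0484). For 5-FU, 3 of the 9 genes were called, near the share of all probes (36.6%). CCL20 changed less in Huh7 by -1.57 ± 0.25, BIRC3 by -0.74 ± 0.13 and RELB by -0.70 ± 0.25 (limma adjusted p = 2.21e-04, 3.94e-04 and 0.044). The call of RELB was lost under slide as a block (limma adjusted p = 0.0614), under median scaling (0.0955) and on the spike-in scale (0.196). It was also lost with the closest replicates averaged (0.053) and on leaving out any of 12 single arrays. Without the first Huh1 control RELB was at -0.405 and called (0.0269). The call of BIRC3 was lost on the spike-in scale (-0.59, 0.0562). The differences of CXCL2 (-0.61, 95% confidence interval -1.23 to 0.00), TNFAIP3 (-0.33, -0.61 to -0.05), NFKBIA (0.24, -0.12 to 0.60) and TRAF6 (0.22, 0.02 to 0.43) were not called, but each was without some single array. CXCL2 was called without the first Huh1 control (-0.831, limma adjusted p = 0.0236) or the first Huh7 5-FU array (-0.784, 0.0452). TNFAIP3 was called without the latter array (-0.425, limma adjusted p = 0.0131) or the third Huh1 control (-0.413, 0.0237). NFKBIA was called without the first Huh1 5-FU array (0.404, limma adjusted p = 0.0162) and TRAF6 without the third Huh7 5-FU array (0.269, 0.0401).

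**Figure D3:**
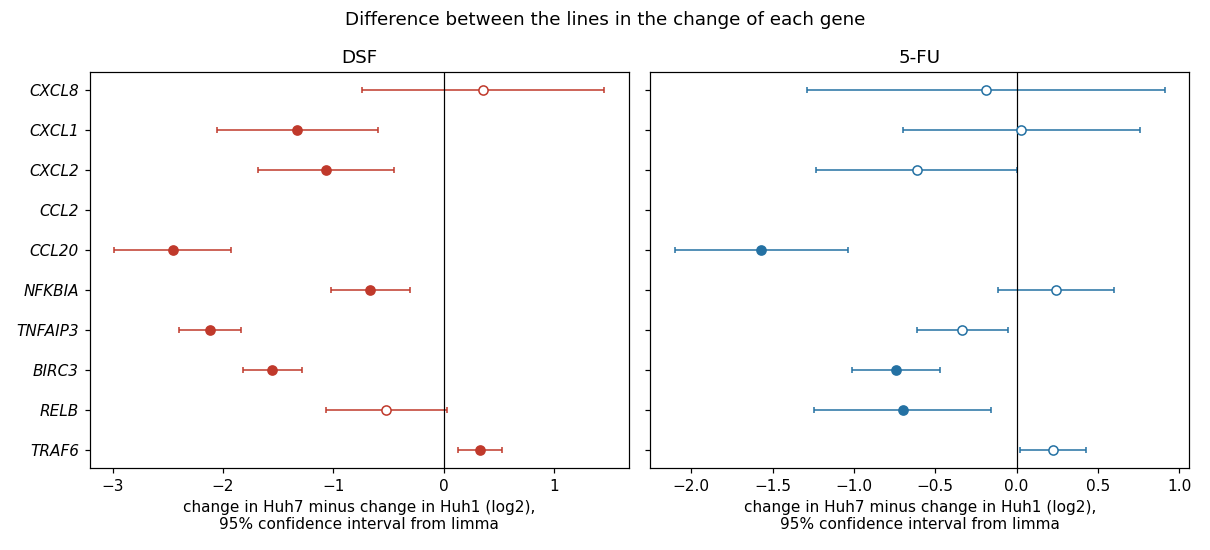
Difference between the lines in the response of each gene, the Huh7 change less the Huh1 change (log2, horizontal axis), for DSF (left) and 5-FU (right), with 95% confidence intervals from limma as bars and filled points for an adjusted p under 0.05. For DSF the points of CCL20 and TNFAIP3 lie below -2, and CCL2 is not drawn, since it was below background on all Huh1 arrays.

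The lines already differed before treatment, for these genes about as often as for all probes. In the controls, 6 of the 9 genes measured differed between Huh7 and Huh1, where 70.9% of all probes did. CCL20 was higher in Huh7 by 4.96 ± 0.17 (SE, n = 3 against 3), CXCL1 by 4.50 ± 0.24, TNFAIP3 by 2.53 ± 0.09, CXCL2 by 1.79 ± 0.20 and BIRC3 by 1.52 ± 0.09 (limma adjusted p = 3.12e-12 to 1.57e-06). The second probe of CXCL2 gave 3.09, over 1 log2 unit more than the brighter probe, and the size of that difference depends on the probe. RELB was lower in Huh7 by -0.51 ± 0.18 (limma adjusted p = 0.0199), with overlapping arrays. It was not called with quantile normalization (-0.34), with slide as a block (-0.47) or on the spike-in scale (-0.44). Nor was it called with the closest replicates averaged (-0.364) or without the second or the third Huh1 control (-0.36 and -0.37). Without the first Huh1 control it was -0.809 (limma adjusted p = 4.90e-06). Without the first Huh1 control, CXCL8 was lower in Huh7 by -1.09 (limma adjusted p = 7.98e-05), against -0.48 (0.248) with it. NFKBIA was at 0.27 and not called, but was without that control (0.323, limma adjusted p = 0.0424) and without the first Huh1 5-FU array (0.267, 0.00811). Of the 6 groups, the highest CXCL1 and CCL20 levels were in Huh7 with 5-FU, which overlapped Huh7 with DSF for both genes and the Huh7 controls for CCL20. The highest NFKBIA and RELB levels were in Huh1 with DSF, without overlap with the group below. BIRC3 was highest in the DSF groups of both lines, which overlapped, and TRAF6 was highest in Huh7 with DSF, without overlap. The slides nearly coincided with the lines, so line and slide can be told apart only through the single Huh1 DSF array on the slide of the Huh7 controls.

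Other genes of the pathway are given as counts and medians. Their lists were written from general knowledge, but with earlier results of these data known, so the counts describe the lists and are not a test. These changes are again relative to the bulk of the array. A list gene was tested only if it was well above background throughout at least 1 group. Rises of genes that entered only through a group where they were high thus follow in part from the filter. Of all probes, 20.4% were called lower after DSF in Huh1 and 19.4% in Huh7, and 26% and 29.8% after 5-FU, beside the shares called higher given earlier. After DSF in Huh1, 6 of 8 IκB and IKK genes were called higher (median 0.84, against 0.00 over all probes), and in Huh7 3 were higher and 1 lower (median 0.12). NFKBIE, which encodes IκBε, rose by 1.24 ± 0.10 and 0.37 ± 0.10 (SE), and NFKBIB by 0.75 and 0.39, in Huh1 and Huh7. After 5-FU, 7 of the 8 in Huh1 and 6 in Huh7 were called higher (medians 0.97 and 0.62), with NFKBIB at 1.37 and 1.51, the nuclear IκB NFKBIZ at 1.32 and 0.74, and IKBKG, the regulatory subunit of IκB kinase, at 0.94 and 0.92. Of the 3 subunit genes tested, REL rose by 0.24 and 0.21 after DSF and RELA by 0.56 and 0.31 after 5-FU. Among 9 further feedback genes, DSF raised 4 and lowered 1 in Huh1, with 2 and 1 in Huh7, 3 and 2 after 5-FU in Huh1, and 1 and 3 in Huh7. TNIP2, an A20-binding partner, rose by 0.43 and 0.57 after DSF and 0.38 and 0.68 after 5-FU, while the deubiquitinase CYLD fell by 0.56 and 1.35 after 5-FU, but stood at 0.27 and -0.36 on the spike-in scale.

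Of 23 other chemokines on the array, 16 were tested. DSF raised 4 and lowered 3 of them in Huh1, against 9 and 1 in Huh7. With 5-FU, 6 rose and 3 fell in Huh1, against 12 and 1 in Huh7 (median 2.03 against -0.05 over all probes). Counts and median include genes with controls below background, such as CCL28 in Huh7. CCL26, an eosinophil chemokine, rose after DSF by 4.38 ± 0.30 in Huh1 and 5.16 ± 0.30 in Huh7 (SE, n = 3 against 3, limma adjusted p = 7.66e-08 and 1.71e-08), more than any measured gene among the 10 in Huh1. CXCL3 rose by 2.49 and 1.68 after DSF and its call held under all 4 scalings, as did those of CCL26 and CCR7, and CXCL16 rose by 0.47 and 0.61. After 5-FU, CXCL16 rose by 1.38 and 2.02. CXCL6 was at least 1.27-fold higher in Huh1, where its controls were below background, and rose by 2.88 in Huh7, while CCL28 rose by 0.87 in Huh1 and was at least 5.10-fold higher in Huh7. The receptor CCR7 was at least 3.59-fold and 2.76-fold higher after DSF in Huh1 and Huh7, with all 6 controls below background, and CCR6, the receptor of CCL20, rose by 0.54 and 1.61 after 5-FU. Over the 8 chemokine receptors tested, DSF raised 2 and lowered 2 in Huh1, with 1 and 1 in Huh7, 3 and 4 after 5-FU in Huh1, and 2 and 1 in Huh7.

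Among 23 receptors and adaptors upstream, calls went both ways: with DSF 3 rose and 5 fell in Huh1, and 7 and 3 in Huh7, while with 5-FU these were 8 and 5, and 8 and 6. TRAF2, an adaptor of TNF receptors, rose by 0.24 and 0.33 after DSF. After 5-FU the kinases RIPK1 (0.61 and 0.99) and IRAK1 (0.36 and 1.14) rose, and the interleukin 1 receptor IL1R1 fell by 1.07 and 1.71, or stood at -0.24 and -0.73 on the spike-in scale. Of 6 ligand genes tested, out of 9 on the array, DSF raised 2 and lowered 2 in Huh1 and raised 3 in Huh7. Among the risen was IL18, at 0.66 and 0.58. With 5-FU, 1 rose and 2 fell in Huh1, while 5 rose in Huh7. Of 22 other target genes tested, out of 23 on the array, DSF raised 12 and lowered 2 in Huh1, against 9 and 6 in Huh7. GADD45B, a stress-response gene, rose by 2.63 and 0.52, SOD2, the mitochondrial superoxide dismutase, by 1.47 and 0.46, and IRF1 by 1.09 and 0.48. On the spike-in scale, where the median of all probes after DSF in Huh7 was -0.09, these 3 were not called in Huh7, nor were REL, NFKBIE, NFKBIB, TNIP2, IL18, TRAF2 and CXCL16 (0.03 to 0.43), and of the other targets 2 were higher and 8 lower. In Huh1, REL, IL18, TRAF2 and CXCL16 were not called with median scaling (0.06 to 0.49). With 5-FU, 10 rose and 3 fell in Huh1, against 6 and 2 in Huh7, with the survival gene BCL2L1 at 1.07 and 1.06 and the cytokine IL32 at 0.85 and 1.18. PLAU rose by 0.83 in Huh1, where 1 of 3 controls was well above background, and by 0.96 in Huh7. On the spike-in scale the number called higher after 5-FU was larger for each list except the subunits in Huh7, which stayed at 3 of 3, with 18 of 22 other targets higher in Huh1 and 19 in Huh7, and 0 lower in either.

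**Figure D4:**
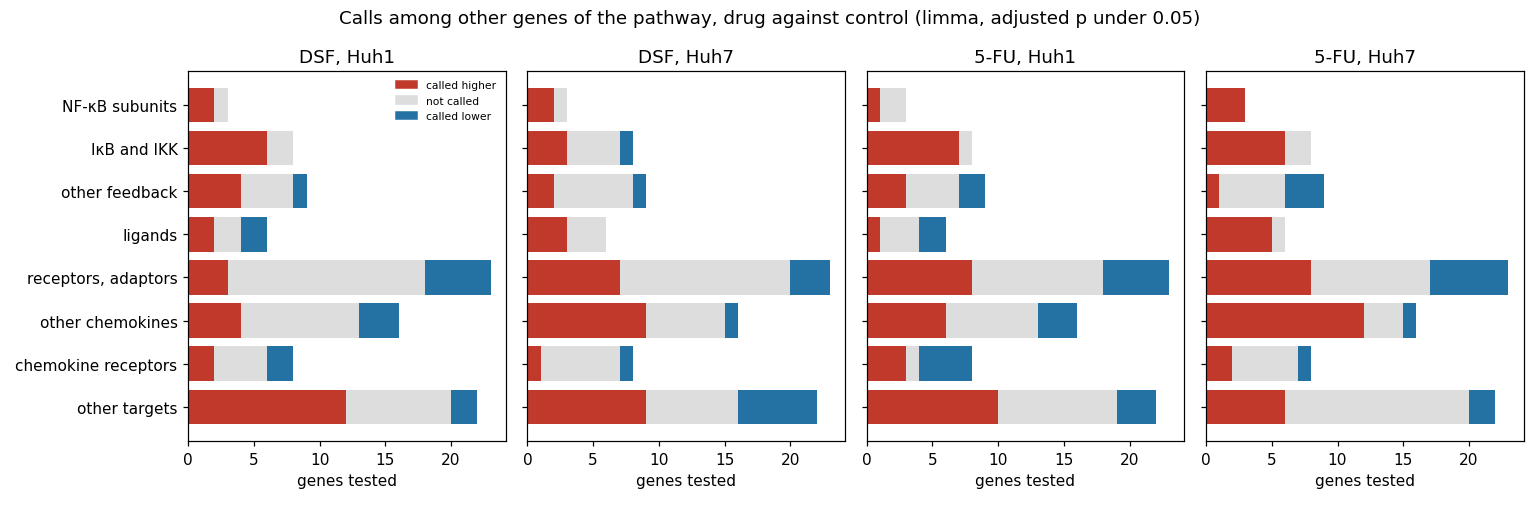
Number of tested genes (horizontal axis) of 8 lists of other pathway genes that were called higher (red), not called (gray) or called lower (blue) against control by limma at an adjusted p under 0.05, in 1 panel per drug and line. The bar for other chemokines is red for 12 of 16 genes after 5-FU in Huh7, against 4 of 16 after DSF in Huh1, and receptors and adaptors hold both colors in every panel. Genes were tested if well above background throughout at least 1 group, which can be the treated group alone.

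Over the 18 arrays, the genes outside the 10 whose levels followed CXCL8 most closely among 15744 were DUSP5 (Pearson r = 0.96), ZNF697 (0.94) and ZNF579 (0.94). DUSP5, a phosphatase of ERK kinases, went from 1.00 in Huh1 controls to 2.83 with DSF and 2.44 with 5-FU, and from 1.095 in Huh7 controls to 2.37 and 2.47. Closest to NFKBIA were ZCCHC12 (0.91), APBB1IP (0.89) and NPPC (0.89), with their highest group means in Huh1 with DSF (-3.60, -3.20 and -4.17). ZCCHC12 was well above background on 7 of the 18 arrays, NPPC on 8 and APBB1IP on 16, in each case with all 3 Huh1 DSF arrays among them. In the other groups the means were -8.31 to -5.84 for ZCCHC12 and -7.60 to -5.15 for NPPC. The likeness of ZCCHC12 and NPPC to NFKBIA thus rests in part on signals below background. These values describe likeness over arrays that share lines, treatments and slides.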

How the data were processed

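RNA of the 18 samples was hybridized to one-color Agilent whole-genome arrays, and the deposited scanner files hold the spot intensity that Agilent Feature Extraction (version 10.7.1.1 per the file headers) gave after background subtraction. The authors also deposited a table of normalized intensity values, which differed from the scanner values by a constant within 0.05 on the log2 scale for 100% of probes.

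From the deposited processed intensity, outlier spots were left out (316 to 447 per array, 0 saturated), spots of a probe were averaged, log2 was taken and the 75th percentile of each array was subtracted. Of 42405 probes, 78 had no spot left. Names came from RefSeq accessions, which gave a symbol to 25736 probes, and symbols can be outdated. A gene was represented by its brightest probe. One model over the 6 groups was fitted with limma 3.58.1 in R 4.3.3 to 29760 probes, with Benjamini-Hochberg adjustment over all of them in each of 9 comparisons. Where a group was below background on all arrays, a fold was given as a bound against the lowest signals well above background. Line differences were counted over the genes above background on all arrays of some group in each line. The fit was tested on simulated data. Tables, promoters and plots were made with Python 3.11.15, pandas 2.3.3, numpy 2.4.6, Biopython 1.88 and matplotlib 3.10.9. The number of arrays limits the precision.

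The genes and pathway lists were chosen with earlier results of these data known. All 10 genes were named in every comparison, and from each list at most 3 genes per drug were named, by the largest mean change among those that passed in both lines, one way, with no overlap with controls. Marker genes of other cell types were named apart from this rule. Alternatives were other background corrections, scalings, filters, probe summaries, fits, slide and replicate blocks, leaving out each array, and, added after the data were seen, normexp on median signals and the averaging of the closest replicates.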

Additional observations from a re-analysis of the deposited data

Results flagged for a closer look

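The response to a drug differed between Huh7 and Huh1 by the interaction term of the limma fit for 10 pairs of gene and drug, each as the log2 change in Huh7 minus that in Huh1. For each drug 9 genes had a level in both lines. Of all probes, 40.4% were called for DSF and 36.6% for 5-FU, so the count for 5-FU was near the share of all probes. For DSF the differences were -2.46 for CCL20, -2.12 for TNFAIP3, -1.55 for BIRC3, -1.33 for CXCL1, -1.06 for CXCL2, -0.66 for NFKBIA and 0.33 for TRAF6. For 5-FU they were -1.57 for CCL20, -0.74 for BIRC3 and -0.70 for RELB. Each line was on slides that it shared only in part with the other. With slide as a block, the DSF calls of CXCL1, CXCL2 and NFKBIA were lost. The DSF call of TRAF6 was lost on the spike-in scale and under normexp, and the 5-FU call of BIRC3 on the spike-in scale. That of RELB for 5-FU was lost under several settings and on leaving out many single arrays.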

How the results depend on the processing

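Of the calls against control, 9 of 9 after DSF in Huh1, 7 of 8 after DSF in Huh7 (all but TNFAIP3), 7 of 8 after 5-FU in Huh1 (all but TRAF6) and 7 of 7 after 5-FU in Huh7 held under every alternative in which the gene was tested. With the filter on all 18 arrays CCL2 was not tested, which left 6 calls after 5-FU in Huh7. The table deposited by the authors changed 0 of 84 values in call or direction. Since it differed from the scanner values by a constant within 0.05, it was not an independent check. With spike-in scaling, 1 gene was called for DSF against 5-FU in Huh1, 8 in Huh7, and 1 for the line difference after 5-FU. The median of all probes for DSF against 5-FU on that scale was -0.61 in Huh1 and -1.04 in Huh7. With slide as a block, 1 was called for DSF against 5-FU in Huh7 and 4 for the line difference after DSF. Leaving out 1 array gave 2 to 4 calls for DSF against 5-FU in Huh7, the 4 without the first Huh1 control.

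Signs turned with spike-in scaling for NFKBIA after DSF in Huh7 (-0.0333) and after 5-FU in Huh1 (0.774), for DSF against 5-FU in Huh1 for CXCL2 (-0.0148), RELB (-0.296) and TRAF6 (-0.319), and in Huh7 for CXCL8 (-0.748), CXCL2 (-0.93), CCL2 (-0.156), TNFAIP3 (-0.995), BIRC3 (-0.99), RELB (-0.58) and TRAF6 (-0.676). Quantile normalization gave 0.0403 for NFKBIA after 5-FU in Huh1 and -0.0615 for TRAF6 between controls, which was -0.13 with median scaling. Slide as a block gave 0.0878 for NFKBIA, DSF against 5-FU in Huh7. Averaging the closest replicates gave -0.000147 for the line difference of CXCL8 after DSF and -0.102 for that of CXCL1 after 5-FU. Leaving out 1 array spanned 0 for 7 values without a call: CCL20 after DSF in Huh7 (-0.0757 to 0.00591), NFKBIA after 5-FU in Huh1 (-0.218 to 0.032), DSF against 5-FU in Huh7 for CXCL1 (-0.229 to 0.0172) and NFKBIA (-0.108 to 0.0454), the line difference after 5-FU for CXCL1 (-0.168 to 0.419) and CXCL8 (-0.54 to 0.425), and TRAF6 between controls (-0.00662 to 0.0768). Causes were not tested, except that spike-in scaling by construction adds the shift of the bulk of the array.

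Same-numbered arrays did not deviate together (45 correlations from -0.093 to 0.104), and the replicate block changed the call of 1 of 84 values, NFKBIA between controls (0.267, limma adjusted p = 0.0485). Normexp on mean signals was not run, and median signals were used instead.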
